A study of Homo sapiens with 12 samples.

Results

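The genes that build cholesterol and fatty acids were measured on 12 expression arrays. All came from HCC827, a widely used human cell line of lung adenocarcinoma that has an activating mutation in EGFR. The list held 34 genes chosen by name, and 31 of them had a probe set annotated to their symbol alone, out of 11963 such genes on the array. ACSS2, ACSL3 and FADS1 were left out, the last because its probe sets carried a further symbol. Each gene was read from its brightest probe set by the mean over all arrays. A probe set is the group of short probes whose summed signal gives 1 value per array. The values are log2(intensity + 1), so that a difference of 1 is a 2-fold change.

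The labels form 4 groups of 3 arrays. HCC827 is the parental line and ERC4 a line made resistant to erlotinib, a drug that blocks the EGFR kinase. HCC827NT cells carry a lentivirus with a non-target shRNA, and HCC827_Esh9-1 cells, written Esh9-1 here, carry one with an shRNA against EGFR. All groups share the HCC827 background and medium with 5% FBS, and both shRNA lines also received 5 ug/ml puromycin. The labels do not say whether erlotinib was in the medium at harvest. ERC4 is 1 resistant line and Esh9-1 carries 1 shRNA label, so that what belongs to that line or that shRNA and what belongs to resistance or EGFR loss cannot be told apart. One label field calls every sample resistant, parental cells included, and the groups here follow the sample titles. Whether replicates were separate cultures is not stated, so the p-values speak for the spread of these arrays alone, which may be technical.

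Cells make cholesterol from acetyl-CoA through the mevalonate pathway, which yields isoprenoids, then squalene, and then a chain of sterols. Fatty acids are built from the same acetyl-CoA and are afterwards elongated and desaturated. Both routes are switched on by the transcription factors SREBP-1 and SREBP-2, encoded by SREBF1 and SREBF2. SCAP carries these factors from the endoplasmic reticulum to the Golgi when sterols are scarce, and INSIG1 holds SCAP back when sterols are plentiful. SREBP-2 acts mainly on cholesterol genes and SREBP-1 mainly on fatty acid genes. EGFR signalling is known to raise SREBP-1 activity in some tumours, and in the lung, lipid synthesis supplies surfactant.

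EGFR itself was read first, as a check of the shRNA label. Its log2 level was 13.47, 13.66 and 13.51 on the HCC827NT arrays and 12.16, 12.27 and 12.32 on the Esh9-1 arrays. Of 6 EGFR probe sets, 4 were called lower in Esh9-1 and 0 higher. In ERC4 minus HCC827, 2 of the 6 were called higher and 0 lower. A gene is called here when limma's adjusted p over all 11963 genes is under 0.05. Array medians lay between 49.98 and 52.97 in HCC827 and ERC4 and between 141.2 and 143.4 in HCC827NT and Esh9-1. The arrays thus form 2 sets of 6, and each comparison stays within 1 set. Spiked hybridisation controls differed between the groups compared, by -1.59 on the log2 scale in ERC4 minus HCC827 and by 0.60 in Esh9-1 minus HCC827NT (for each, p = 0.1 by a two-sided exact permutation test, which with 3 arrays against 3 cannot go lower). The part of these differences in the results was not tested.

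The cells were checked against marker genes. All 7 epithelial markers lay above the array median in HCC827, ERC4 and HCC827NT, and in Esh9-1 6 of 7 did, CDH1 lying below it. All 7 were called lower in both comparisons, with a median of -2.05 in ERC4 and -2.11 in Esh9-1 and CDH1 lowest at -6.28 in Esh9-1. Their summed intensity was 18549 to 18875 in HCC827 and 7968 to 8388 in ERC4, and 59023 to 60174 in HCC827NT and 10559 to 11065 in Esh9-1. Of 5 lung markers, SFTPD and SLC34A2 lay below the median in all groups, and all 5 were called lower in Esh9-1. In ERC4, 1 of them was called higher and 2 lower, and 2 were not called. None of 6 leukocyte markers was above the array median on all arrays of any group, and none of 6 adipocyte markers was in HCC827, ERC4 or HCC827NT. In Esh9-1, 1 of 6 adipocyte markers was, CIDEC, at 0.31 above HCC827NT (adjusted p = 0.00824). Summed adipocyte marker intensity ran from 200.6 to 220.5 in HCC827, from 177.6 to 181.8 in ERC4, from 429.3 to 469.1 in HCC827NT and from 446.6 to 478.4 in Esh9-1. Of 8 hepatocyte markers, 2 were called higher in ERC4, ALB and FGB, by 3.30 and 2.40 on the log2 scale. Another 3 were called lower there, and the median of the list was -0.11. The summed intensity of that list was 506.9 to 543.2 in HCC827 and 1651 to 1953 in ERC4. APOA1, APOA2, APOB and CYP2E1 stayed below the array median in both. In Esh9-1 FGB was called higher, by 2.26, and 1 other hepatocyte marker was called lower. The summed intensity was 439.9 to 471.9 in HCC827NT and 598.8 to 630.3 in Esh9-1. Of 8 fibroblast markers, 4 were called lower and 1 higher in ERC4, and LUM, the one called in Esh9-1, was higher by 2.56 there while below the array median on all arrays. The summed intensity of that list was 409.1 to 418.9 in HCC827, 330.0 to 351.1 in ERC4, 907.0 to 1008 in HCC827NT and 946.2 to 1003 in Esh9-1. Among all genes, 28.8% were called lower and 28.9% higher in ERC4, and 24.6% lower and 25.3% higher in Esh9-1. The part of these markers in the lipid gene results was not tested.

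In Esh9-1 cells the lipid synthesis genes were mostly lower than in HCC827NT. Of the 31 members, 21 fell, 3 rose and 7 were not called. Over all genes measured, 24.6% were called lower and 25.3% higher, 49.9% together. Values are per array of bulk RNA, so that fewer cells making a transcript and less of it per cell cannot be told apart. SCD, which puts the first double bond into saturated fatty acids, fell 9.24-fold. SREBF1 fell 4.38-fold, HMGCS1 4.31-fold in its brightest probe set, LPIN1 3.37-fold and FASN 2.82-fold. By at least 2-fold, 8 members fell and 1 rose, where 4.11% and 4.89% of all genes did. The 1 that rose was ELOVL6, an elongase of saturated and monounsaturated fatty acids, at 2.95-fold. The members' median difference was -0.67 on the log2 scale, beside -0.02 for all genes. The arrays of the groups did not overlap for 26 members, beside 61.3% of all genes.

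In ERC4 cells the same genes split. Against HCC827, 14 members rose, 12 fell and 5 were not called, beside 28.9% of all genes called higher and 28.8% lower, 57.7% together. The groups did not overlap for 26 members, beside 60.5% of all genes. NPC1, which moves cholesterol out of lysosomes, rose 2.68-fold. SQLE and DHCR7, enzymes of the squalene and last sterol steps, rose 2.20-fold and 2.13-fold. These 3 were the members changed by at least 2-fold, while 4.51% of all genes rose and 1.79% fell by that much, 6.29% together. SREBF1 fell 1.997-fold, just short of that threshold, and SCD 1.88-fold. The members' median was 0.12 on the log2 scale and that of all genes -0.04. After quantile normalization within each set, 10 members were called higher and 14 lower, and the median was -0.10, so that the balance of rises and falls in ERC4 depended on the scaling.

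**Figure D1:**
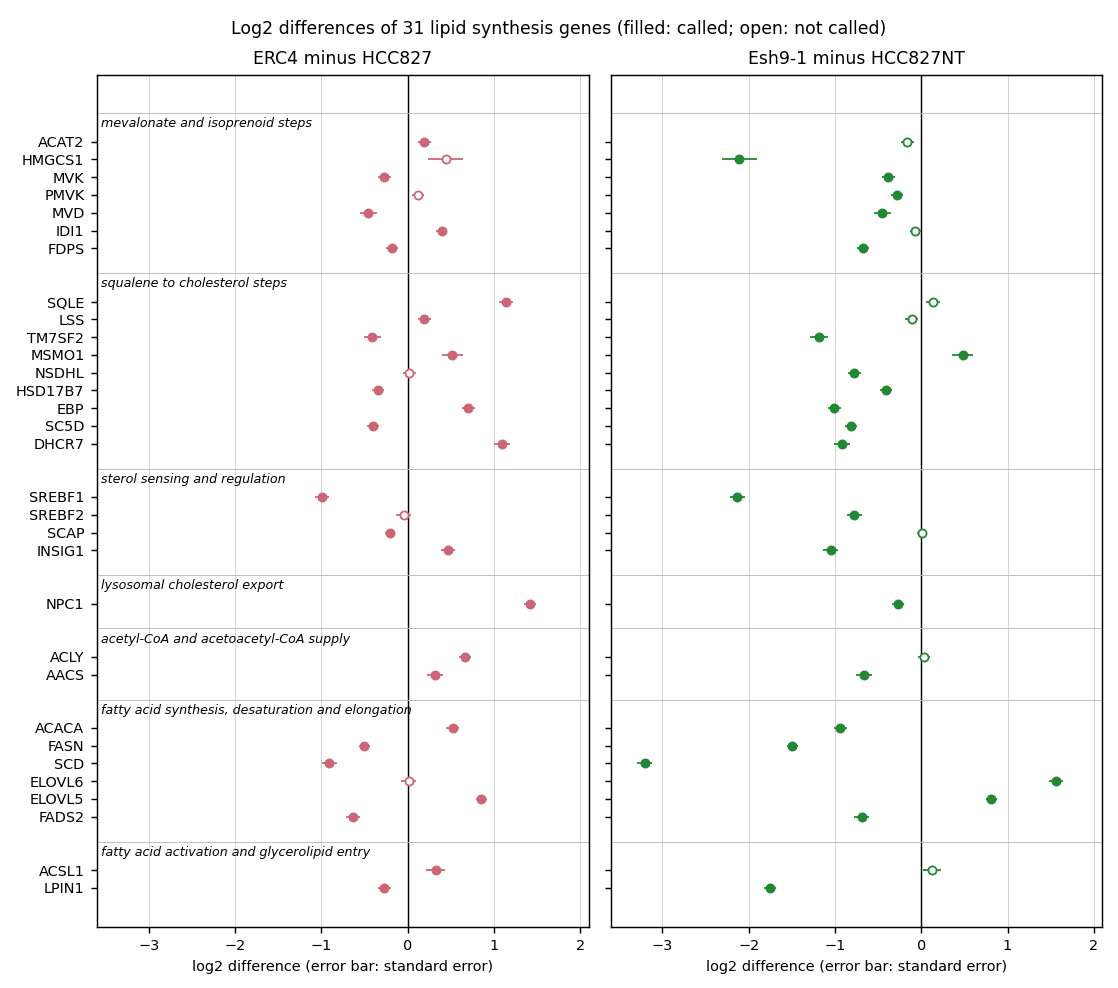
Log2 difference of each of the 31 members (points, with limma's standard error as bars) in ERC4 minus HCC827 (left) and Esh9-1 minus HCC827NT (right), grouped by role, with filled points called at an adjusted p under 0.05 and open points not called. Points lie on both sides of 0 on the left, between -0.998 and 1.42, and mostly below 0 on the right, where SCD reaches -3.21 and ELOVL6 1.56.

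Among the regulators, SREBF1, the gene for SREBP-1, fell in both comparisons, as read from the only probe set annotated to it alone. Its log2 level was 8.61, 8.52 and 8.73 in HCC827 and 7.59, 7.63 and 7.64 in ERC4. It was 10.42, 10.59 and 10.66 in HCC827NT and 8.49, 8.30 and 8.49 in Esh9-1. No array of ERC4 or Esh9-1 reached its control group. The differences were -0.998 ± 0.08 (SE, n = 3 arrays per group; limma adjusted p = 1.62e-07) in ERC4 and -2.13 ± 0.08 (adjusted p = 2.5e-11) in Esh9-1.

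SREBF2, the gene for SREBP-2, was called in Esh9-1 alone. It stood at 8.10, 7.997 and 8.13 in HCC827 and at 8.19, 7.94 and 7.95 in ERC4, and these groups overlapped. In HCC827NT it stood at 9.28, 9.08 and 9.23 and in Esh9-1 at 8.35, 8.36 and 8.54. Every Esh9-1 array was below every HCC827NT array. It fell by 0.78 ± 0.09 in Esh9-1 (limma adjusted p = 2.96e-06), and its second probe set fell by 0.54. In ERC4 the difference was -0.05 ± 0.09 (adjusted p = 0.659), but quantile normalization within each set gave -0.27 with an adjusted p of 0.0251.

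INSIG1, the protein that retains SCAP and is itself switched on by SREBPs, rose in ERC4 and fell in Esh9-1. Its levels were 7.77, 7.67 and 7.74 in HCC827, 8.14, 8.33 and 8.11 in ERC4, 10.11, 9.81 and 10.02 in HCC827NT, and 8.88, 8.95 and 8.96 in Esh9-1. Neither pair of groups overlapped. The differences were 0.47 ± 0.08 (limma adjusted p = 0.000309) and -1.05 ± 0.08 (adjusted p = 8.22e-08). Its other probe sets did not all follow: 201626_at gave 0.44 in ERC4 but -0.09 in Esh9-1 (adjusted p = 0.479), and 201625_s_at gave -0.03 (adjusted p = 0.84) and -0.96. SCAP fell slightly in ERC4, by 0.20 ± 0.06 (adjusted p = 0.00907). Median centring ended this call (adjusted p = 0.0523). In Esh9-1 SCAP differed by 0.01 ± 0.06.

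**Figure D2:**
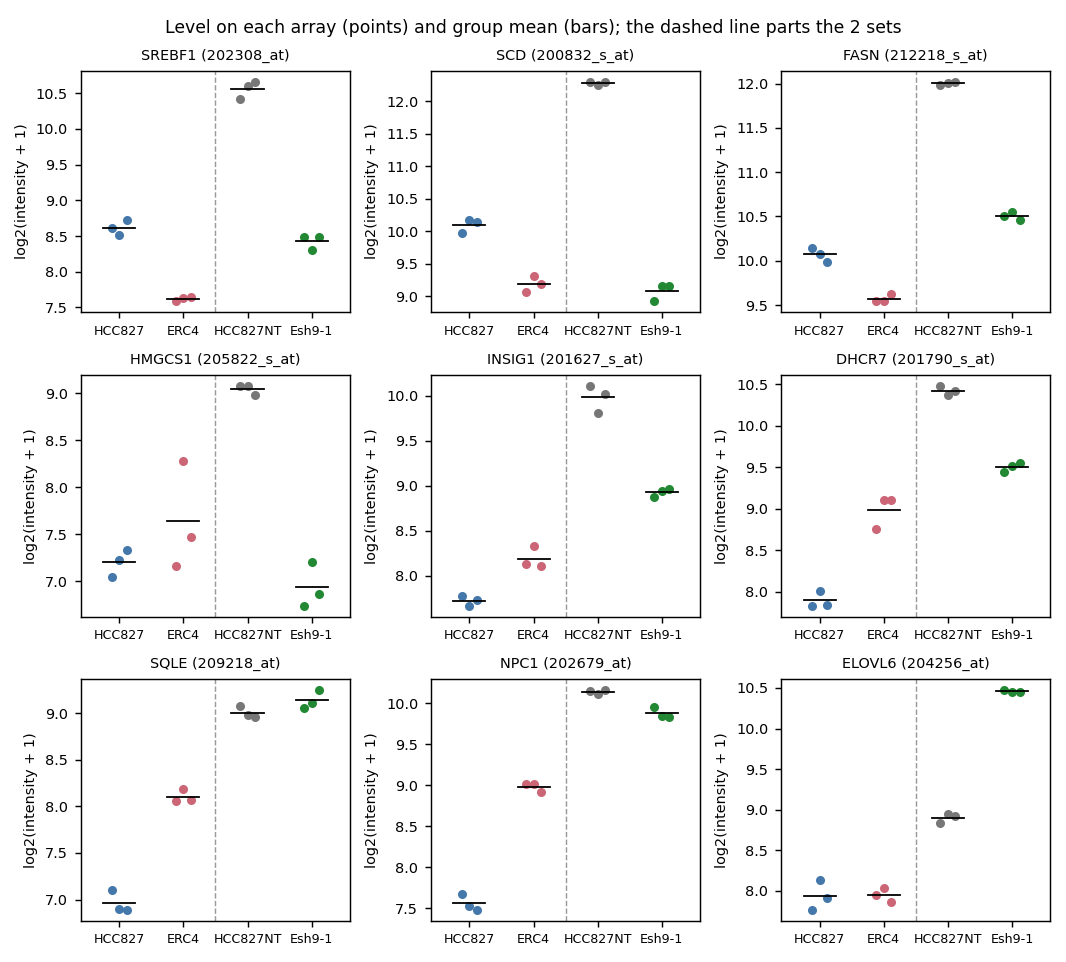
Log2(intensity + 1) of 9 members on each of the 12 arrays (points) with group means (bars), by group, each panel with its own vertical axis and probe set. SREBF1, SCD and FASN are lower in ERC4 than in HCC827 and in Esh9-1 than in HCC827NT, while INSIG1, DHCR7 and NPC1 are higher in the first and lower in the second comparison. The dashed line parts the 2 sets of arrays, across which heights cannot be compared.

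The DNA at the members' starts, whatever the call of the gene, was searched for motifs of the factors that act on lipid genes. RefSeq windows of GRCh38.p14, each 300 bases long with 250 before the start and 50 after it, were at hand for 28 of the 31 members, and not for ACAT2, FASN and SQLE. Both strands were searched for TCACNCCAC, the sterol regulatory element that SREBPs bind, and for CCAAT, the NF-Y box that often lies beside it. CACGTG, the E-box, and GGGCGG, the GC box of SP1, were searched too, and none of these letter strings lies within another. A CCAAT box lay in 25 of the members' 43 windows, 58.1%, and in 34.6% of all 35116 windows. The sterol regulatory element lay in 2 windows, those of SREBF2 and ACSL1, and in 1.13% of all windows. Among the 14058 windows of genes on the array, 35.1% held a CCAAT box and 1.08% the sterol regulatory element. The E-box lay in 6 member windows, 14.0%, beside 7.26% of all windows and 8.76% of those of array genes. The GC box lay in 34 member windows, 79.1%, beside 45.0% of all and 59.2% of those of array genes. Windows of a gene can overlap, as for SC5D and ACLY, so that the same site counts more than once. Counted by gene, a CCAAT box lay in 75% of members, beside 44.2% of array genes with windows. The E-box lay in 17.9% beside 12%, the GC box in 92.9% beside 69.8%, and the sterol regulatory element in 7.14% beside 1.5%. These shares pool all members with windows, fallen or not. CCAAT boxes lay in MSMO1 and ELOVL5, which rose in Esh9-1, and in IDI1, LSS, ACLY and ACSL1, not called there. None lay in PMVK, LPIN1, NPC1, AACS and SREBF1, which fell, in ELOVL6, which rose, or in SCAP, not called. The other fallen members with windows held one. With the sterol regulatory element, SREBF2 fell and ACSL1 was not called. A match is a description of letters and not a measured binding site.

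The windows of the 4 members with 1 window and the largest change in either comparison are shown. Genes with several windows were left out because the arrays do not tell starts apart. A gene with 1 window here may have other starts, which were not searched. SREBF2 is added for its match to the sterol regulatory element, a choice made after the search. Each is written 5′ to 3′ on the gene's strand, with matches to the 4 motifs on either strand in capitals. The first 4 end at the base before the start, and the SREBF2 stretch runs from -163 to -84.
SCD, chr10:100346983-100347232, plus strand: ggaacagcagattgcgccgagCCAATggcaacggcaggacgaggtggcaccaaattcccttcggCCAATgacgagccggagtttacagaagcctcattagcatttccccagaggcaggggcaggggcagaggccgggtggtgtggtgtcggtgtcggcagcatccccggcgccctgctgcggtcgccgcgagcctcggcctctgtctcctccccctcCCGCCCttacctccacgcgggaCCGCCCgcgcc
SREBF1, chr17:17836987-17837236, minus strand: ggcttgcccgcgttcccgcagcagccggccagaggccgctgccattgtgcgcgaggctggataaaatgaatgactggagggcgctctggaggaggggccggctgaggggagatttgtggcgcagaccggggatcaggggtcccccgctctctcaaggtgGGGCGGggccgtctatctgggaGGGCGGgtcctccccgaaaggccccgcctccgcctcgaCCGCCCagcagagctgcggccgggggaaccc
ELOVL6, chr4:110198616-110198865, minus strand: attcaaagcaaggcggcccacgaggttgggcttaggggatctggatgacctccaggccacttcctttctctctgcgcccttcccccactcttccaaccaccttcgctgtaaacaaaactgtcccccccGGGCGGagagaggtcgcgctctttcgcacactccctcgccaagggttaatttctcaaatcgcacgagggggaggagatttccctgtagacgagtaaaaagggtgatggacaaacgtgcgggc
NPC1, chr18:23586507-23586756, minus strand: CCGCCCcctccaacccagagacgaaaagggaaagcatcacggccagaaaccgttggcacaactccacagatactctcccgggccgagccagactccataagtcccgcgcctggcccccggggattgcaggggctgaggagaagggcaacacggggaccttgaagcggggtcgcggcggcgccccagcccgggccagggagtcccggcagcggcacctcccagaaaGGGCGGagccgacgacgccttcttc
SREBF2, chr22:41832942-41833021, plus strand: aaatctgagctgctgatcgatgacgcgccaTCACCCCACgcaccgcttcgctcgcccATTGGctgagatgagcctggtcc
The SCD window held CCAAT boxes at -229 and -186 from the start, and SREBF1, ELOVL6 and NPC1, shown over the same length, held only GC boxes. The SREBF2 stretch held the sterol regulatory element at -133 and a CCAAT box on the other strand at -106. SCD and SREBF1, which fell in both comparisons, had no match to those letters in their windows, and neither other spellings nor DNA outside the windows was searched.

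Of the 7 mevalonate and isoprenoid genes, 5 fell in Esh9-1, 0 rose and 2 were not called, with a median of -0.38. Among all genes, 24.6% fell and 25.3% rose there. In ERC4, 2 rose and 3 fell, beside 28.9% and 28.8% of all genes. HMGCS1 makes HMG-CoA, the first committed compound of the pathway. It had levels of 9.07, 9.08 and 8.98 in HCC827NT and 6.74, 7.20 and 6.87 in Esh9-1, groups far apart. The difference was -2.11 ± 0.21 (limma adjusted p = 6.94e-07). Its second probe set, 221750_at, went the other way by 0.27 ± 0.10 (adjusted p = 0.0412), so that the direction for HMGCS1 rests on which probes are read. In HCC827 it stood at 7.05, 7.22 and 7.34 and in ERC4 at 7.17, 8.28 and 7.48, and the groups overlapped. ERC4 replicate 2 was the high array. The difference of 0.44 ± 0.21 was not called (adjusted p = 0.0828), but was without ERC4 replicate 1 (0.68, adjusted p = 0.00934), and the second probe set rose by 0.67 (adjusted p = 7.58e-05).

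FDPS, which makes farnesyl diphosphate, stood at 11.13, 11.17 and 11.17 in HCC827NT and at 10.37, 10.51 and 10.56 in Esh9-1. It fell there by 0.68 ± 0.07 (limma adjusted p = 8.43e-07). MVK, the mevalonate kinase, fell in both comparisons in all 3 of its probe sets, between -0.55 and -0.27 in ERC4 and between -0.63 and -0.38 in Esh9-1. MVD, the decarboxylase of the pathway, fell by about equal amounts, 0.46 ± 0.10 and 0.45 ± 0.10. PMVK, the kinase before it, fell by 0.28 ± 0.07 in Esh9-1 and gave 0.12 ± 0.07 in ERC4 (adjusted p = 0.13). IDI1, the isomerase, rose by 0.39 ± 0.06 in ERC4 and gave -0.07 ± 0.06 in Esh9-1. Both IDI1 probe sets have a name ending in _x_at, which marks probes that may also match other transcripts. ACAT2, the thiolase that opens the route, rose by 0.19 ± 0.07 in ERC4 (adjusted p = 0.0332) and gave -0.16 ± 0.07 in Esh9-1 (adjusted p = 0.0809).

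The smallest of these calls did not stand on every array. That for ACAT2 in ERC4 ended without HCC827 replicate 1 (adjusted p = 0.0925) or 3 (0.0653) or ERC4 replicate 1 (0.106) or 3 (0.0866), and with quantile normalization within each set (0.759). FDPS fell in ERC4 by 0.18 ± 0.07 (adjusted p = 0.0314), which ended without HCC827 replicate 1 (0.101), ERC4 replicate 2 (0.0553) or ERC4 replicate 3 (0.0902). ACAT2 in Esh9-1, not called over all arrays, was called without HCC827NT replicate 1 (-0.22, adjusted p = 0.0304).

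Of the 9 genes between squalene and cholesterol, 6 fell in Esh9-1 and 1 rose, beside 24.6% and 25.3% of all genes. In ERC4, 5 rose and 3 fell, beside 28.9% and 28.8% of all genes. SQLE adds oxygen to squalene and is a rate-limiting step. Its levels were 7.10, 6.90 and 6.89 in HCC827 and 8.05, 8.19 and 8.06 in ERC4. All ERC4 arrays were higher, by 1.14 ± 0.08 (limma adjusted p = 2.88e-08). Its other probe sets rose by 0.88 (213562_s_at) and gave 0.17 (213577_at, adjusted p = 0.0863). In Esh9-1 the brightest SQLE probe set gave 0.13 ± 0.08 (adjusted p = 0.18), and the other probe sets were called in opposite directions, at 0.21 and -0.57.

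DHCR7 carries out the last reduction to cholesterol. It measured 7.83, 8.01 and 7.85 in HCC827 and 8.76, 9.11 and 9.10 in ERC4, and 10.48, 10.37 and 10.42 in HCC827NT against 9.45, 9.51 and 9.55 in Esh9-1. It was thus higher on all ERC4 arrays and lower on all Esh9-1 arrays. The differences were 1.09 ± 0.09 (limma adjusted p = 1.79e-07) and -0.92 ± 0.09 (adjusted p = 7.91e-07). The second DHCR7 probe set gave the same directions, at 1.00 and -0.53.

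EBP, a sterol isomerase, moved likewise, from 9.10, 8.89 and 9.01 in HCC827 to 9.64, 9.74 and 9.72 in ERC4, and from 10.50, 10.30 and 10.39 in HCC827NT to 9.36, 9.45 and 9.36 in Esh9-1. These groups did not overlap, and the differences were 0.70 ± 0.08 and -1.01 ± 0.08. Its 202735_at probe set rose in ERC4 by 0.36 but gave -0.09 in Esh9-1 (adjusted p = 0.464). Its remaining probe set, 213789_at, gave -0.24 in ERC4 (adjusted p = 0.192) and -0.78 in Esh9-1. TM7SF2, a sterol reductase, fell in both, by 0.41 ± 0.10 and 1.18 ± 0.10. SC5D, a sterol desaturase, fell by 0.40 ± 0.07 and 0.81 ± 0.07, and its second probe set gave -0.23 in ERC4 (adjusted p = 0.251) and -0.97 in Esh9-1. HSD17B7, a ketosteroid reductase read by an _x_at probe set, fell by 0.34 ± 0.07 and 0.41 ± 0.07. NSDHL, which works in the same demethylation step, fell by 0.78 ± 0.08 in Esh9-1 and gave 0.02 ± 0.08 in ERC4. The second NSDHL probe set gave -0.18 in Esh9-1 and was not called (adjusted p = 0.175).

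MSMO1, the sterol methyl oxidase, was the member of the sterol chain that rose in both comparisons. It stood at 6.81, 7.37 and 7.14 in HCC827 and 7.65, 7.71 and 7.51 in ERC4, and at 9.05, 8.91 and 9.17 in HCC827NT and 9.64, 9.45 and 9.48 in Esh9-1. The groups did not overlap in either comparison. The rises were 0.52 ± 0.12 (limma adjusted p = 0.00206) and 0.48 ± 0.12 (adjusted p = 0.00359). LSS, the cyclase that forms lanosterol, rose by 0.19 ± 0.07 in ERC4 (adjusted p = 0.0363) with overlapping groups. This call ended without HCC827 replicate 2 (adjusted p = 0.0533) or 3 (0.171) or ERC4 replicate 1 (0.1) or 2 (0.0954), and quantile normalization within each set turned the value to -0.04. In Esh9-1 the 3 LSS probe sets gave -0.11, -1.18 and 0.36, of which the latter 2 were called in opposite directions.

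NPC1 exports cholesterol from lysosomes. Its levels were 7.67, 7.53 and 7.48 in HCC827 and 9.01, 9.01 and 8.92 in ERC4, and the ERC4 arrays lay well above. The rise of 1.42 ± 0.07 (limma adjusted p = 7.6e-10) was the largest of any member in that comparison, and its second probe set rose by 0.32. In HCC827NT it stood at 10.15, 10.12 and 10.16 and in Esh9-1 at 9.96, 9.85 and 9.83. It fell there by 0.27 ± 0.07 (adjusted p = 0.00473), and the groups did not overlap.

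Both measured genes for the supply of acetyl-CoA and acetoacetyl-CoA, ACLY and AACS, were called higher in ERC4, as were 28.9% of all genes. ACLY cleaves citrate to cytosolic acetyl-CoA. It measured 9.78, 10.001 and 9.87 in HCC827 and 10.52, 10.61 and 10.52 in ERC4. All ERC4 arrays were higher, by 0.67 ± 0.07 (limma adjusted p = 1.91e-06). Its other probe sets gave 0.26 there (210337_s_at, called) and 0.08 (201127_s_at, adjusted p = 0.421). In Esh9-1 its brightest probe set gave 0.03 ± 0.07, but the other ACLY probe sets gave -0.88 and -0.36, both called. AACS activates acetoacetate for lipid synthesis. It rose by 0.32 ± 0.10 in ERC4 (adjusted p = 0.0112) and fell by 0.67 ± 0.10 in Esh9-1. Its ERC4 call ended without ERC4 replicate 1, the high array (0.20, adjusted p = 0.0587), and with quantile normalization within each set (adjusted p = 0.427).

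Of the 6 measured genes of fatty acid synthesis, desaturation and elongation, all were called in Esh9-1, 4 lower and 2 higher. Among all genes, 49.9% were called there, 24.6% lower and 25.3% higher. SCD measured 12.30, 12.26 and 12.30 in HCC827NT and 8.92, 9.15 and 9.16 in Esh9-1. The difference of -3.21 ± 0.09 (limma adjusted p = 4.39e-13) was the largest of any member, and its 4 probe sets gave between -4.10 and -2.97. In HCC827 it stood at 9.98, 10.17 and 10.14 and in ERC4 at 9.07, 9.31 and 9.19. It fell there by 0.91 ± 0.09 (adjusted p = 6.19e-07), and all 4 probe sets were called lower.

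FASN, the fatty acid synthase, went from 10.15, 10.08 and 9.99 in HCC827 to 9.54, 9.55 and 9.62 in ERC4. It went from 11.98, 12.004 and 12.02 in HCC827NT to 10.51, 10.55 and 10.46 in Esh9-1. No groups overlapped, and the differences were -0.501 ± 0.06 (limma adjusted p = 1.24e-05) and -1.496 ± 0.06 (adjusted p = 7.3e-11). A much dimmer second FASN probe set, 217006_x_at, fell in ERC4 too but gave 0.06 in Esh9-1 (adjusted p = 0.548). FADS2, the desaturase that starts the making of long polyunsaturated fatty acids, fell by 0.64 ± 0.08 and 0.69 ± 0.08.

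ACACA makes malonyl-CoA, the building unit FASN uses, and did not move with FASN in ERC4. Its levels were 8.48, 8.57 and 8.46 in HCC827 and 8.99, 9.04 and 9.05 in ERC4, with all ERC4 arrays higher, by 0.52 ± 0.07 (limma adjusted p = 3.21e-05). They were 10.77, 10.78 and 10.75 in HCC827NT and 9.86, 9.67 and 9.95 in Esh9-1, a difference of -0.94 ± 0.07 (adjusted p = 6.26e-08). Its second probe set followed in both, at 0.48 and -1.36.

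ELOVL6 and ELOVL5 rose in Esh9-1, where SCD and FADS2 fell. Outside the member list, the elongase gene ELOVL4 gave -0.10 there (limma adjusted p = 0.396) and the desaturase gene SCD5 fell by 0.43 (adjusted p = 0.000214). Both were named outside the rule for the related lists given below. ELOVL6 measured 8.84, 8.94 and 8.92 in HCC827NT and 10.47, 10.45 and 10.45 in Esh9-1. All Esh9-1 arrays were higher, by 1.56 ± 0.08 (limma adjusted p = 1.13e-09), and its second probe set rose by 1.11. In ERC4 it gave 0.01 ± 0.08, with overlapping groups, and -0.22 after quantile normalization within each set (adjusted p = 0.0332), while its second probe set rose by 0.38. ELOVL5 elongates polyunsaturated fatty acids. It rose from 8.67, 8.73 and 8.74 in HCC827 to 9.52, 9.59 and 9.60 in ERC4, and from 10.78, 10.76 and 10.83 in HCC827NT to 11.55, 11.59 and 11.66 in Esh9-1. The rises were 0.85 ± 0.06 (adjusted p = 4.2e-08) and 0.81 ± 0.06 (adjusted p = 4.42e-08). Its dimmer probe sets were called lower in ERC4, at -0.43 and -0.37, and were not called in Esh9-1.

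LPIN1 turns phosphatidate into diacylglycerol, the branch point of glycerolipids. It measured 9.35, 9.45 and 9.46 in HCC827NT and 7.71, 7.62 and 7.68 in Esh9-1. The difference of -1.75 ± 0.07 (limma adjusted p = 5.6e-11) was shared in direction by its other probe sets, at -1.47 and -2.68. In ERC4 it fell by 0.27 ± 0.07 in the brightest probe set (adjusted p = 0.00585), but the other probe sets gave 0.11 and 0.03 and were not called. ACSL1, which activates long-chain fatty acids, rose by 0.32 ± 0.11 in ERC4 (adjusted p = 0.0182) and gave 0.12 ± 0.11 in Esh9-1, where its second probe set rose by 0.82. The ACSL1 call in ERC4 ended without HCC827 replicate 3 (adjusted p = 0.0941) or ERC4 replicate 3 (0.0667) and with quantile normalization within each set (0.181).

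Probe sets of the same gene lay farther apart in the Esh9-1 comparison than in the ERC4 comparison, a difference that was not tested. Among the 20 members with several probe sets, the median distance between the highest and lowest log2 difference was 0.74 in Esh9-1 minus HCC827NT and 0.35 in ERC4 minus HCC827. Probe sets were called in opposite directions for HMGCS1, LSS and SQLE in Esh9-1 and for ELOVL5 in ERC4. In 9 members all probe sets were called the same way in Esh9-1, SCD, LPIN1, MVK, DHCR7, ACACA, SREBF2, SC5D, NPC1 and ELOVL6. Control probe sets at both ends of ACTB show whether the 3′ end is favoured. The log2 signal at the 3′ end exceeded that at the 5′ end by 0.20 ± 0.03 (SD, n = 3) in HCC827NT and by 1.07 ± 0.15 in Esh9-1. Those for GAPDH gave -0.05 ± 0.02 and 0.30 ± 0.08 (two-sided exact permutation p = 0.1 for each gene, as low as this design allows). In HCC827 and ERC4 the ACTB values were 0.22 ± 0.05 and 0.19 ± 0.04 (exact permutation p = 0.5), and the GAPDH values 0.06 ± 0.03 and -0.08 ± 0.03 (exact permutation p = 0.1). The part of these differences in the lipid gene results was not tested.

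**Figure D3:**
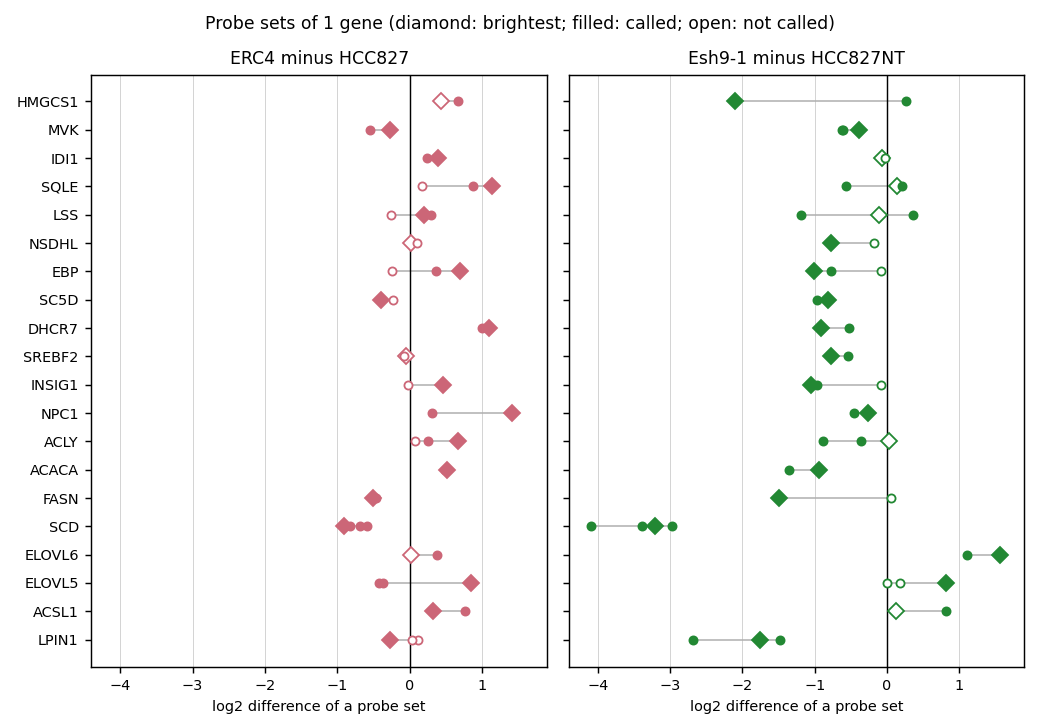
Log2 difference of every probe set of the 20 members with more than 1, in ERC4 minus HCC827 (left) and Esh9-1 minus HCC827NT (right). Diamonds are the brightest probe set of a gene, filled symbols are called and open ones are not. SCD, LPIN1 and DHCR7 keep to one side of 0 on the right, while HMGCS1 spans -2.11 to 0.27 and LSS -1.18 to 0.36.

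The comparisons share no arrays, and the members can be sorted by their calls in both. Lower in both were 11 members, MVK, MVD, FDPS, TM7SF2, HSD17B7, SC5D, SREBF1, FASN, SCD, FADS2 and LPIN1, which is 35.5% of the 31, while 8.80% of all genes were lower in both. Higher in both were MSMO1 and ELOVL5, and 13.4% of all genes were. Higher in ERC4 and lower in Esh9-1 were 6 members, EBP, DHCR7, INSIG1, NPC1, AACS and ACACA, or 19.4%, beside 6.40% of all genes. No member was lower in ERC4 and higher in Esh9-1, beside 3.25% of all genes. ACAT2, IDI1, SQLE, LSS, ACLY and ACSL1 rose in ERC4 without a call in Esh9-1. SCAP fell in ERC4 alone, while HMGCS1, PMVK, NSDHL and SREBF2 were called lower, and ELOVL6 higher, in Esh9-1 alone. Of those 12, limma called a difference between the comparisons for all but ACSL1.

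The difference between the comparisons was tested in the same model, as the log2 difference in ERC4 minus HCC827 less that in Esh9-1 minus HCC827NT. It was called positive for 22 members, where 25.5% of all genes were, and negative for 2, where 24.1% were, 49.6% together. At 2-fold or more it was positive for 10 and negative for 1, beside 6.60% and 4.23% of all genes. The largest positive values were those of HMGCS1 (2.55, limma adjusted p = 5.61e-06), SCD (2.30, adjusted p = 2.04e-09) and DHCR7 (2.01, adjusted p = 1.55e-08). The second HMGCS1 probe set was also called positive but gave 0.40 (limma adjusted p = 0.0351), so that the size for HMGCS1 rests on which probes are read. ELOVL6 was negative at -1.55 (adjusted p = 1.13e-07), and SCAP at -0.21 (adjusted p = 0.0467). Leaving out any single array other than HCC827NT replicate 3 ended the SCAP call (adjusted p from 0.0538 to 0.105). The LSS difference of 0.31 (adjusted p = 0.0254) lost its call without HCC827 replicate 3 (0.0626), ERC4 replicate 1 (0.0546) or 2 (0.0526), HCC827NT replicate 1 (0.0539), or Esh9-1 replicate 2 (0.0517) or 3 (0.0565). MVK, MVD, MSMO1, HSD17B7, ELOVL5, FADS2 and ACSL1 were not called, with values between -0.0015 and 0.20. Since the sets may differ in scale, HCC827 and ERC4 values were also stretched to the spread of the others, and the counts stayed at 22 and 2. After quantile normalization within each set they were 18 and 2.

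**Figure D4:**
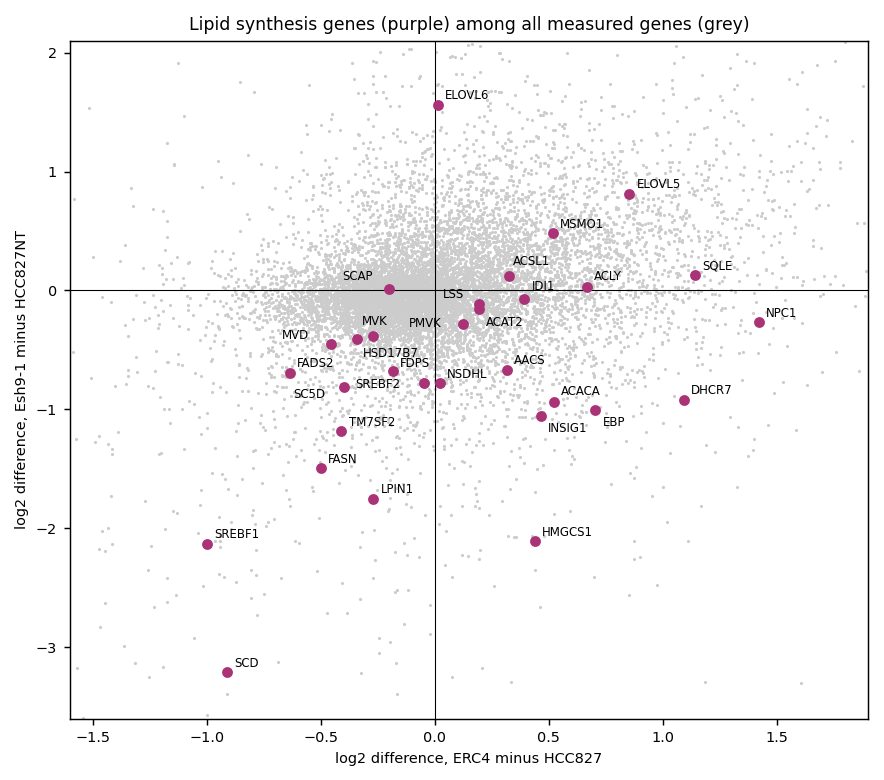
Log2 difference in Esh9-1 minus HCC827NT (vertical) against that in ERC4 minus HCC827 (horizontal) for the 31 members (purple, named) among all measured genes (grey), of which 256 lie outside the axes. SREBF1, SCD and FASN lie at the lower left, lower in both, and DHCR7, EBP, INSIG1 and NPC1 at the lower right, higher in ERC4 and lower in Esh9-1.

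Levels across the sets can be given only as distances from each array's median, and there group and set cannot be told apart. SREBF1 lay 2.87 ± 0.11 (SD, n = 3) above the median in HCC827, 1.93 ± 0.04 in ERC4, 3.39 ± 0.11 in HCC827NT and 1.26 ± 0.11 in Esh9-1. SCD lay at 4.35 ± 0.11, 3.50 ± 0.14, 5.12 ± 0.03 and 1.91 ± 0.14 in the same order. DHCR7 lay at 2.15 ± 0.10 in HCC827, 3.30 ± 0.21 in ERC4, 3.26 ± 0.07 in HCC827NT and 2.33 ± 0.06 in Esh9-1. The SD of an array's log2 values also differed, with group means of 1.84 in HCC827, 1.945 in ERC4, 2.25 in HCC827NT and 2.27 in Esh9-1. For that reason the groups are not ranked across the sets on this scale. Of the 31 members, 1 had a group mean under its array median, HMGCS1 in Esh9-1 at -0.23 ± 0.24.

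Other genes of lipid metabolism were counted in 4 lists, beside the 57.7% of all genes called in ERC4 and the 49.9% called in Esh9-1. Of 11 measured genes for sterol uptake, storage, sensing and isoprenoids, 7 rose and 1 fell in ERC4, and 4 rose and 5 fell in Esh9-1. SOAT1, which esterifies cholesterol for storage, rose 5.19-fold in ERC4, and NPC2, the lysosomal partner of NPC1, rose 1.94-fold there and fell 1.93-fold in Esh9-1. POR, the electron donor of sterol-modifying enzymes, and TMEM97, a sterol-responsive membrane protein, fell 2.17-fold and 2.08-fold in Esh9-1. Of 8 LXR genes, which answer to high sterol, 1 rose and 3 fell in ERC4, and 2 rose and 2 fell in Esh9-1, 50% in each, near the share of all genes. The cholesterol exporter ABCA1 rose 3.50-fold in Esh9-1, and MYLIP fell in both, 1.82-fold and 2.17-fold.

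Of 17 further genes of fatty acid and glycerolipid synthesis, 7 rose and 6 fell in ERC4, and 5 rose and 7 fell in Esh9-1. The lipid droplet coat gene PLIN2 rose 2.87-fold in ERC4, where the glucose-responsive factor gene MLXIPL fell 2.21-fold. ACSL4, which activates polyunsaturated fatty acids, rose 2.07-fold in ERC4 and 3.77-fold in Esh9-1. SLC25A1, the citrate carrier, fell 2.05-fold in Esh9-1. Of 14 fatty acid oxidation genes, 5 rose and 5 fell in ERC4, and 5 rose and 4 fell in Esh9-1, so that 71.4% and 64.3% were called with rises and falls near even. CPT1A, which admits fatty acids to mitochondria, rose 1.48-fold and 2.48-fold, and ACADM, a mitochondrial dehydrogenase, rose 1.47-fold and 2.61-fold. CPT2, the inner membrane partner of CPT1A, fell by 0.28 and 0.73 on the log2 scale and was chosen after its values were seen.

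**Figure D5:**
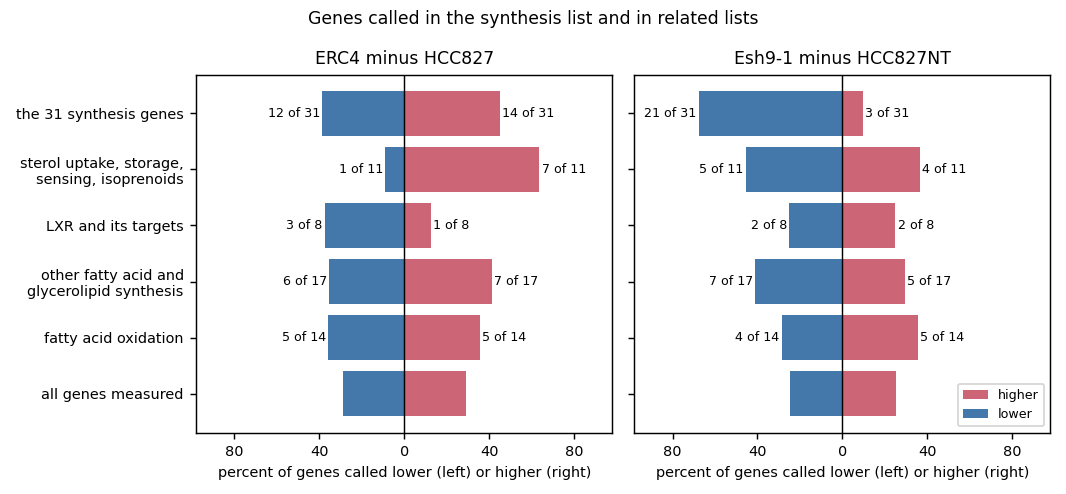
Percent of genes called lower (blue, left of 0) and higher (red, right of 0) in each comparison for the 31 members, 4 related lists and all measured genes, with the counts beside the bars. The synthesis genes have 21 of 31 lower in Esh9-1 minus HCC827NT, and all genes 24.6%.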

How the data were processed

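The authors deposited 1 table of intensities on a linear scale, 22277 probe sets on 12 arrays, which the submitters' processing notes say came from RMA. Its version and the arrays it was run on together are not stated there. Intensities were taken to log2(value + 1). The platform annotation gave 19070 probe sets 1 symbol, 1043 several and 2164 none, and only the first were named. The brightest probe set stood for a gene.

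A single limma model (lmFit, then eBayes; limma 3.58.1, R 4.3.3) held all 12 arrays, with 8 residual degrees of freedom, with Benjamini-Hochberg adjustment over 11963 genes and a threshold of 0.05, two-sided. Errors of differences are limma's standard errors. The fit was tested on simulated data. With 3 arrays per group, their number sets the precision. Every member was named. Related lists were named by up to 3 called genes with the largest change in each comparison. ELOVL4, SCD5 and CPT2 were named outside that rule. Members and lists were chosen with earlier results of these data known. Same-numbered replicates did not deviate together, with correlations between -0.14 and 0.06, so no pairing was used. Alternatives changed the normalization, transform, pseudocount, probe set, variance model, threshold and arrays. Promoter windows came from RefSeq and figures from matplotlib 3.10.9.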

Additional observations from a re-analysis of the deposited data

Results flagged for a closer look

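The log2 differences of 6 members had opposite signs in the comparisons, were called in both, and differed between them by limma's test. The log2 difference in ERC4 minus HCC827 less that in Esh9-1 minus HCC827NT was 2.01 for DHCR7, 1.71 for EBP, 1.69 for NPC1, 1.52 for INSIG1, 1.46 for ACACA and 0.98 for AACS. In each, all 3 ERC4 arrays lay above all HCC827 arrays and all 3 Esh9-1 arrays below all HCC827NT arrays. Picking genes by their calls makes such separation likely, so that it is a description and not further evidence. Groups did not overlap for 60.5% of all genes in ERC4 minus HCC827 and 61.3% in Esh9-1 minus HCC827NT. Called higher in ERC4 and lower in Esh9-1 were 6.40% of all genes. The other probe sets of DHCR7, NPC1 and ACACA gave the same directions, and AACS has a single probe set. For EBP, 202735_at was not called in the Esh9-1 comparison and 213789_at gave -0.24 in ERC4, not called. For INSIG1, 201626_at was not called in the Esh9-1 comparison and 201625_s_at gave -0.03 in ERC4, not called. Groups of 3 arrays are too small for a test of single outlying arrays.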

How the results depend on the processing

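Of the 26 member calls in ERC4 minus HCC827, 16 kept their direction and threshold under every alternative other than the stricter thresholds, and 18 of the 24 in Esh9-1 minus HCC827NT did. Quantile normalization within each set or over all arrays turned the members' median in ERC4 to -0.10 (LSS -0.0385 and -0.0389, ELOVL6 -0.22 under both), and median centring gave 0.18. The median in Esh9-1 was -0.54 with probe sets averaged per gene and -0.45 with the second-brightest probe set, which also raised the count of members higher there to 5. The mean of probe sets turned ACLY to -0.41 in Esh9-1 and the ELOVL5 difference between comparisons to -0.31. The second-brightest probe set turned ELOVL5 (-0.43) and LPIN1 (0.11) in ERC4, HMGCS1 (0.27), ACLY (-0.88) and FASN (0.0608) in Esh9-1, and the differences between comparisons of SQLE (-0.0375), FASN (-0.53) and ELOVL5 (-0.60). At 2-fold or more, 3 members were higher and 0 lower in ERC4, 1 and 8 in Esh9-1, and the difference between comparisons had 10 positive and 1 negative. The count of negative differences was 1, not 2, with the replicate block, with trend and robust settings, with array weights, with median centring and at an adjusted p under 0.01. With the replicate number as a block, 14 members were higher and 12 lower in ERC4 and 3 and 21 in Esh9-1, and the calls of ACAT2 in ERC4 (lost, adjusted p = 0.0705), HMGCS1 in ERC4 (gained, adjusted p = 0.0434) and SCAP (difference lost, adjusted p = 0.1) changed. Leaving out each array in turn gave 11 to 14 members higher and 11 to 12 lower in ERC4 (median 0.09 to 0.15), 3 higher and 21 to 22 lower in Esh9-1 (median -0.69 to -0.62), and 21 to 22 positive and 1 to 2 negative differences. The cause of these changes was not tested. All members reached the dim gene threshold of 6.37 in their highest group mean, which is what that alternative asks. In ERC4 the means of FADS2 (6.11) and MVD (6.36) lay below it.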
